A study of Mus musculus with 5 samples.

Results

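Genes that carry the insulin signal and bring glucose into the fat cell were followed in mouse 3T3-L1 adipocytes that had met myeloma cells before they differentiated. They were the insulin receptor gene *Insr*, the receptor substrates *Irs1* and *Irs2*, the PI3-kinase regulatory subunit gene *Pik3r1*, the kinase gene *Akt2*, the transcription factor *Foxo1*, the receptor-binding inhibitor *Grb10*, and the glucose transporters *Slc2a4* (GLUT4) and *Slc2a1* (GLUT1). These 9 genes were picked by name for their place in the pathway, and were 9 of the 19505 genes named on the array. Each had 1 probe set, so no choice between probes was needed.

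3T3-L1 is an established mouse preadipocyte line, and MM.1S is a human multiple myeloma line. In the 3 MM.1S cultures, the preadipocytes shared their medium with MM.1S cells for 48 h across a transwell membrane with 0.4 µm pores; in the 2 control cultures they had medium alone. Both groups then received the same 7 days of differentiation, with 4 days of IBMX (0.5 mM), dexamethasone (1 µM) and insulin (5 µg/mL), 2 days of insulin (5 µg/mL) and 1 day of basal medium, all with 10% FBS. Insulin was therefore given to both groups alike, no acute insulin stimulus before harvest is described, and RNA was read on a Clariom S mouse array, 1 array per culture. All cells came from 1 line, and nothing in the sources used here says that the replicates were grown from separate starts, so the p-values describe only how far these arrays varied among themselves. In such bulk RNA, fewer cells of a type and less RNA per cell cannot be told apart.

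Insulin binds its receptor, a tyrosine kinase at the cell surface, which phosphorylates IRS proteins. These recruit PI3-kinase, whose lipid product brings Akt to the membrane, and Akt2 is the form best known for moving GLUT4 from internal vesicles to the surface of fat and muscle cells. Akt also keeps FoxO factors out of the nucleus, and *Irs2* is a known FoxO target gene. GLUT1, by contrast, sits at the surface of most cells without insulin. Messenger RNA levels do not show phosphorylation or where a transporter sits.

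The stretches of DNA just before the transcription start are shown for the 2 substrates, which carry the same named motifs and of which *Irs2* had the higher signal in every MM.1S culture, and for *Slc2a1*, the member with the largest difference among those above background. They are the 250 bases before the first start listed by RefSeq for the mouse build GRCm38.p6, on the strand of the gene, with motif matches in capitals. *Irs1* lies at chr1:82291440-82291689, minus strand, *Irs2* at chr8:11008930-11009179, minus strand, and *Slc2a1* at chr4:119108495-119108744, plus strand.
Irs1: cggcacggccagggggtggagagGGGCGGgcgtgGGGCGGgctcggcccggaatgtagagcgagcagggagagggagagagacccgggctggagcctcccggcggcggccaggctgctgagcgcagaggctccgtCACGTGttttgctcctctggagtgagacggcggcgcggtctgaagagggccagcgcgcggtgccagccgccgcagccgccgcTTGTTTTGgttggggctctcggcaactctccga
Irs2: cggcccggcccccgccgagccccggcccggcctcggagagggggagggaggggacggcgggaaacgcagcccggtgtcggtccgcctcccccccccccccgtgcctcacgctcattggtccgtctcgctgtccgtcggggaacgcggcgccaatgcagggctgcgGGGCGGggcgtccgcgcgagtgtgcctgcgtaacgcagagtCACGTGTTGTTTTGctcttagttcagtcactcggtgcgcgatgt
Slc2a1: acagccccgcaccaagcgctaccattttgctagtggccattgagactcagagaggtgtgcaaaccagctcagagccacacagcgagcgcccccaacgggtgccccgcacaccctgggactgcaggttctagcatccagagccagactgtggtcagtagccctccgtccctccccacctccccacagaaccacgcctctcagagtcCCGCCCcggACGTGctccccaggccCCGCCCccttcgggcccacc

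The motifs were searched on both strands, and were shown after their matches had been seen. In *Irs1* an E-box, CACGTG, began at -115 from the start, and the insulin response sequence CAAAACAA, read on the other strand as TTGTTTTG, began at -33. In *Irs2* the same E-box at -44 ran straight into the same TTGTTTTG at -38, so that both motifs form 1 unbroken run of capitals. Of 32851 such windows over all genes, 6.02% held the E-box, 2.21% held CAAAACAA and 33 windows held both. *Slc2a1* held the hypoxia response core ACGTG at -36, which 16.6% of all windows hold and which also lies inside every CACGTG. It stood between GC boxes (GGGCGG, here as CCGCCC) at -45 and -20, while *Irs1* had GC boxes at -227 and -216 and *Irs2* at -85. GC boxes were in 32.7% of all windows. GTAAACA, the only sequence searched as a FoxO site, was in 3.17% of all windows and the sterol response element TCACNCCAC in 1.05%. Neither had a match in the 7 members with a window. The lack of GTAAACA does not show that a window holds no sequence that FoxO factors bind. These matches are descriptions of letters in a window. *Insr* and *Slc2a4* had no window.

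Values are log2 signals as the authors normalized them (RMA), so a difference of 1 is a doubling of signal, and levels were set side by side only within a gene. A background level of 3.59 was taken from 1450 olfactory, vomeronasal and taste receptor genes, which fat cells do not use, as their 95th percentile. Of all probe sets 61.0% averaged above it, and 8 of the 9 members did. Arrays correlated at 0.985 to 0.993 across probe sets. MM.1S replicate 3 lay outside the other 4 arrays in 49.6% of probe sets, against 33.5% to 39.8% for the other arrays. Values without it are given for some members and lists, but not for every gene named. Of 11 mature adipocyte markers 10 averaged above background, and so did 8 of 10 preadipocyte markers. *Adipoq* was at 11.79, 11.86 and 11.79 on the MM.1S arrays and 11.80 and 11.67 on the control arrays, although leptin (*Lep*) averaged below background in both groups. The preadipocyte marker *Dlk1* was at 10.07, 10.05 and 9.97 on the MM.1S arrays and 10.47 and 10.48 on the control arrays.

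None of the 9 members passed both thresholds used in the study, an unadjusted p of 0.05 or less with a fold change above 1.5, which 2.35% of all 22206 probe sets passed in the limma fit used here. At the p threshold alone, *Irs2* was higher and *Slc2a1* was lower in MM.1S adipocytes, against 3.48% of all probe sets higher and 4.11% lower. After Benjamini-Hochberg adjustment over all probe sets no member was below 0.05, by limma or by the one-way ANOVA of the methods, and the smallest adjusted p on the whole array was 0.166 by limma. The groups did not overlap for *Irs2*, on the higher side, or for *Foxo1*, *Slc2a4* and *Slc2a1*, on the lower side. Of all probe sets 11.9% were apart on the higher side and 12.2% on the lower side.

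**Figure D1:**
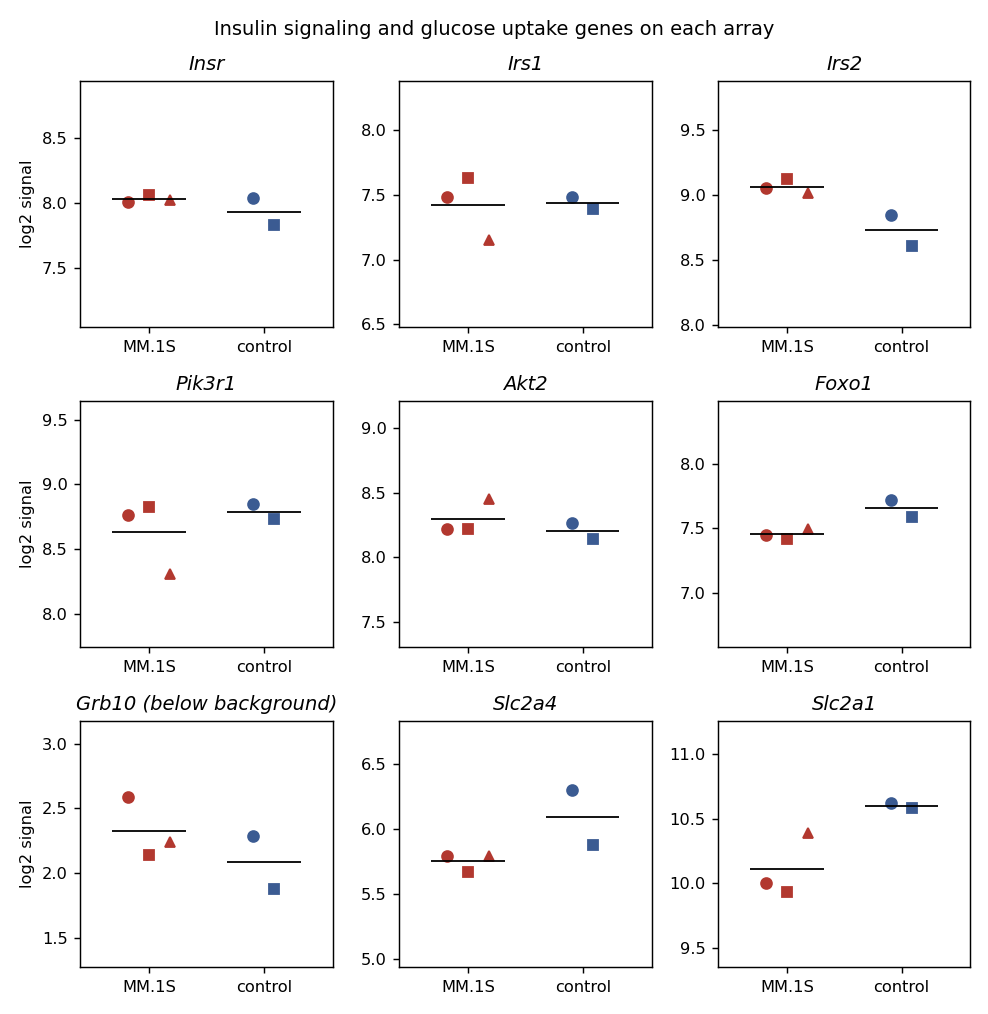
Log2 signal (y axis, the same span of 1.9 in every panel) of the 9 genes on the 3 MM.1S arrays (red, left) and the 2 control arrays (blue, right); circles, squares and triangles are replicates 1, 2 and 3, and lines are group means. Slc2a1, Slc2a4 and Foxo1 sit lower and Irs2 sits higher on every MM.1S array than on either control array, while MM.1S replicate 3 stands apart for Irs1 and Pik3r1.

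*Insr*, the receptor through which insulin acts, read 8.00, 8.06 and 8.02 on the MM.1S arrays, against 8.03 and 7.83 on the control arrays. The groups overlapped, and the 3 MM.1S arrays lay within 0.054 of each other. The log2 fold change was 0.10 ± 0.12 (SE), with a 95% interval of -0.19 to 0.38 and an adjusted p of 0.810 by limma. The interval allows a shift either way and ends short of 1.5-fold on both sides.

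The 2 substrates differed in what they showed. *Irs2* read 9.05, 9.13 and 9.02 on the MM.1S arrays, against 8.85 and 8.60 on the control arrays, so each MM.1S array lay above both controls. Its log2 fold change was 0.34 ± 0.12 (SE), a 1.26-fold higher signal, with an interval of 0.03 to 0.65, an unadjusted p of 0.0358 and an adjusted p of 0.637 by limma. The direction held whichever array was left out, between 0.22 and 0.46, but the unadjusted p passed 0.05 without MM.1S replicate 1 (0.0695), MM.1S replicate 2 (0.0826) or control replicate 2 (0.149), and with the replicate number as a block (0.0690). *Irs1* read 7.48, 7.63 and 7.15 on the MM.1S arrays, against 7.48 and 7.39 on the control arrays. MM.1S replicate 3 was the lowest of the 5 and replicate 2 the highest, and the log2 fold change was -0.01 ± 0.17 (SE, interval -0.43 to 0.40, adjusted p = 0.987 by limma). A separate test of whether *Irs2* and *Irs1* moved differently was not run.

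*Pik3r1* encodes p85alpha, the regulatory subunit that ties PI3-kinase to IRS proteins. It read 8.76, 8.83 and 8.31 on the MM.1S arrays, against 8.85 and 8.73 on the control arrays. The low MM.1S replicate 3 carried the difference: the log2 fold change was -0.16 ± 0.19 (SE, interval -0.62 to 0.30, adjusted p = 0.805 by limma) with it and 0.0033 without it. *Akt2* read 8.22, 8.22 and 8.45 on the MM.1S arrays, against 8.27 and 8.14 on the control arrays. Here MM.1S replicate 3 was the highest array, and the difference of 0.09 ± 0.13 (SE, interval -0.23 to 0.41, adjusted p = 0.844 by limma) was within the spread of the arrays. Without that array it was 0.011, and without control replicate 2 it was 0.028.

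*Foxo1* encodes the FoxO factor that Akt holds in check and that helps time adipocyte differentiation. It read 7.45, 7.42 and 7.49 on the MM.1S arrays, against 7.72 and 7.59 on the control arrays. All MM.1S arrays lay below both controls, and the groups were tight, but the step was small. The log2 fold change was -0.20 ± 0.11 (SE), with an interval of -0.47 to 0.07 and an unadjusted p of 0.118 by limma, against 0.0391 by the ANOVA of the methods, which takes the spread from this gene alone. *Grb10*, whose protein binds the activated receptor and dampens it, averaged 2.23 over the 5 arrays, under the background level on each of them, so no fold change is given for it.

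The transporters were both lower in signal on every MM.1S array than on either control array. *Slc2a1* read 10.00, 9.93 and 10.39 in MM.1S adipocytes, against 10.62 and 10.58 in control adipocytes. The controls lay close together, and MM.1S replicate 3 was nearer to them than the other MM.1S arrays were. The log2 fold change was -0.49 ± 0.17 (SE), or 0.711 of the control signal, with an interval of -0.90 to -0.08, an unadjusted p of 0.0270 and an adjusted p of 0.610 by limma. By the ANOVA of the methods its unadjusted p was 0.0762, above the threshold. Without MM.1S replicate 3 it was -0.63 at an unadjusted p of 0.00248, past both thresholds; without any 1 of the other 4 arrays the unadjusted p was above 0.05, at up to 0.122.

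*Slc2a4*, the insulin-responsive transporter of fat and muscle, read 5.79, 5.67 and 5.79 in MM.1S adipocytes, against 6.30 and 5.88 in control adipocytes. The MM.1S arrays lay together, while the controls were 0.42 apart. The log2 fold change was -0.34 ± 0.16 (SE), or 0.791 of the control signal, with an interval of -0.72 to 0.05, an unadjusted p of 0.0745 and an adjusted p of 0.668 by limma. How large it looked turned on the control chosen. Without control replicate 2 it was -0.55 at an unadjusted p of 0.0134, and without control replicate 1 it was -0.13.

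Whether the 2 transporters moved unequally was asked with the *Slc2a4* value minus the *Slc2a1* value on each array. A constant offset between the 2 probe sets cancels in the change of this difference. Unequal response of a dim and a bright probe set would not cancel. This difference was -4.21, -4.26 and -4.60 in MM.1S adipocytes, against -4.32 and -4.70 in control adipocytes. The groups overlapped, and the change was 0.15 with an exact two-sided permutation p of 0.5, where 3 against 2 arrays can reach no lower than 0.1. This test could not have passed 0.05, so it does not settle whether the transporters moved unequally.

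**Figure D2:**
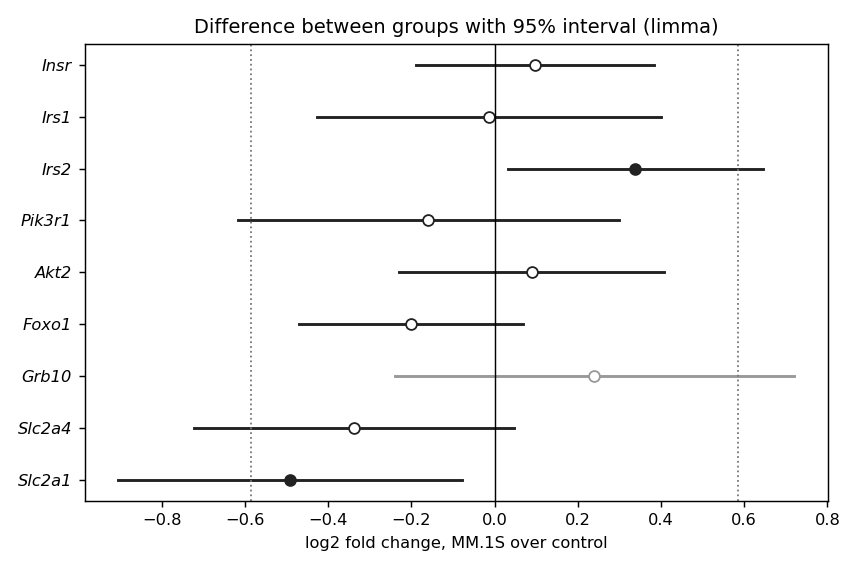
Log2 fold change of MM.1S over control (x axis) with its 95% interval from limma for each gene; filled points have an unadjusted p of 0.05 or less, the grey gene (Grb10) is below background, and dotted lines mark 1.5-fold. The intervals of Irs2 (0.03 to 0.65) and Slc2a1 (-0.90 to -0.08) leave out 0, and those of the other genes do not.

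**Figure D3:**
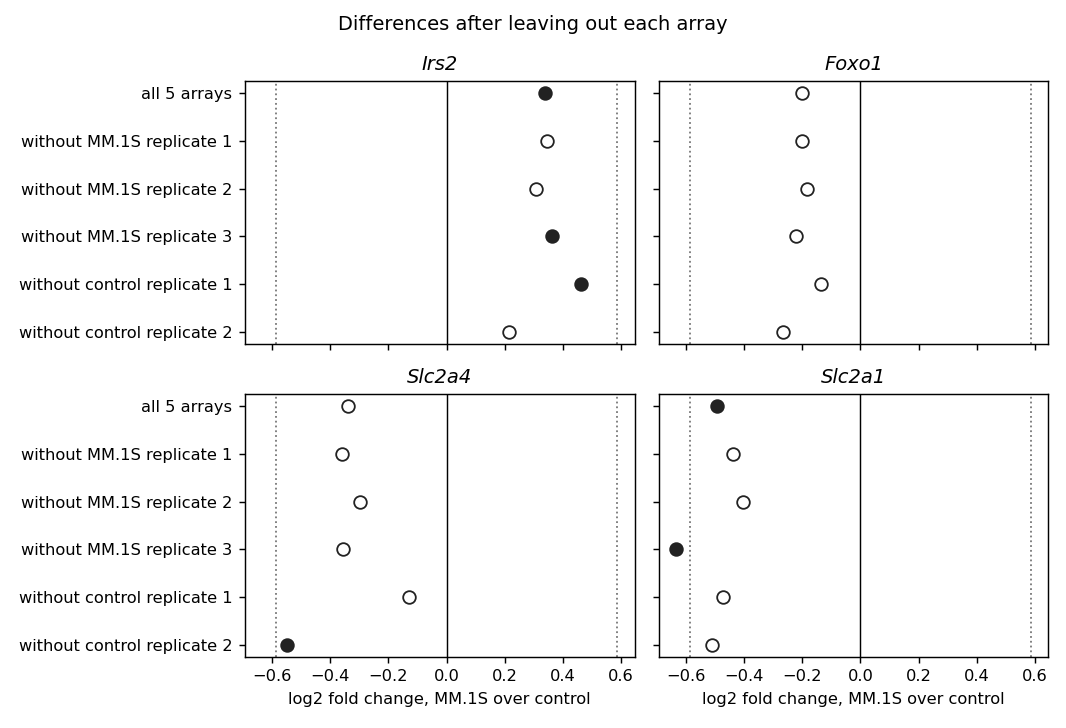
Log2 fold change of MM.1S over control (x axis) for the 4 genes whose groups did not overlap, with all 5 arrays and with each array left out in turn (rows); filled points have an unadjusted p of 0.05 or less in limma, and dotted lines mark 1.5-fold. Each gene keeps its direction in every row, and Slc2a4 ranges from -0.55 to -0.13.

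The array profiles most like those of 3 members were looked up among 12135 other named genes above background, as the root mean square distance over the 5 arrays after centring each gene. For *Insr* they were *Tpst2* (0.010), *Virma* (0.015) and *Tax1bp3* (0.015). For *Slc2a4* they were *Frg2f1* (0.033), *Col1a1* (0.034) and *Osbpl3* (0.036), and for *Slc2a1* they were *Gemin8* (0.040), *Tbl2* (0.042) and *Ssh2* (0.046). *Col1a1*, a collagen chain of preadipocytes, had a log2 fold change of -0.33 beside the -0.34 of *Slc2a4*. Closeness over 5 arrays is a description only, since many genes share so short a profile.

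The rest of the pathway was read through lists of genes by role. Apart from the members, 174 listed genes were measured, of which 4 (2.3%) were higher and 17 (9.77%) were lower in MM.1S adipocytes at an unadjusted p of 0.05 or less. Without control replicate 2, 2 were higher and 9 lower. Their median log2 fold change was -0.06, against 0.01 over all probe sets. Among all named genes above background, 3.12% were higher and 6.02% lower, with a median of -0.03. These shares also stand beside the counts of each list below. The lists were drawn up with earlier results of these data known, so the comparison of shares is not a blind one. For single genes of the lists, higher and lower refer to that p threshold, and none was below 0.05 after adjustment over all probe sets. The 9 list genes past both thresholds were *Ins2*, *Hkdc1*, *Sod2*, *Ppp1r3b*, *Socs7*, *Ide*, *Pdk4*, *Errfi1* and *Foxo4*. Over 12 alternative settings of the fit, *Foxo4*, *Errfi1* and *Pdk4* were past the p threshold in all. *Ins2*, *Ide* and *Ppp1r3b* lost it in 1, *Hkdc1* and *Sod2* in 3 and *Socs7* in 4. Of the 9, *Ins2*, *Foxo4*, *Errfi1*, *Ide*, *Ppp1r3b* and *Pdk4* were also past both thresholds by the ANOVA of the methods. All 9 were read from the arrays that the study itself analysed, so their direction here is not independent evidence.

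**Figure D4:**
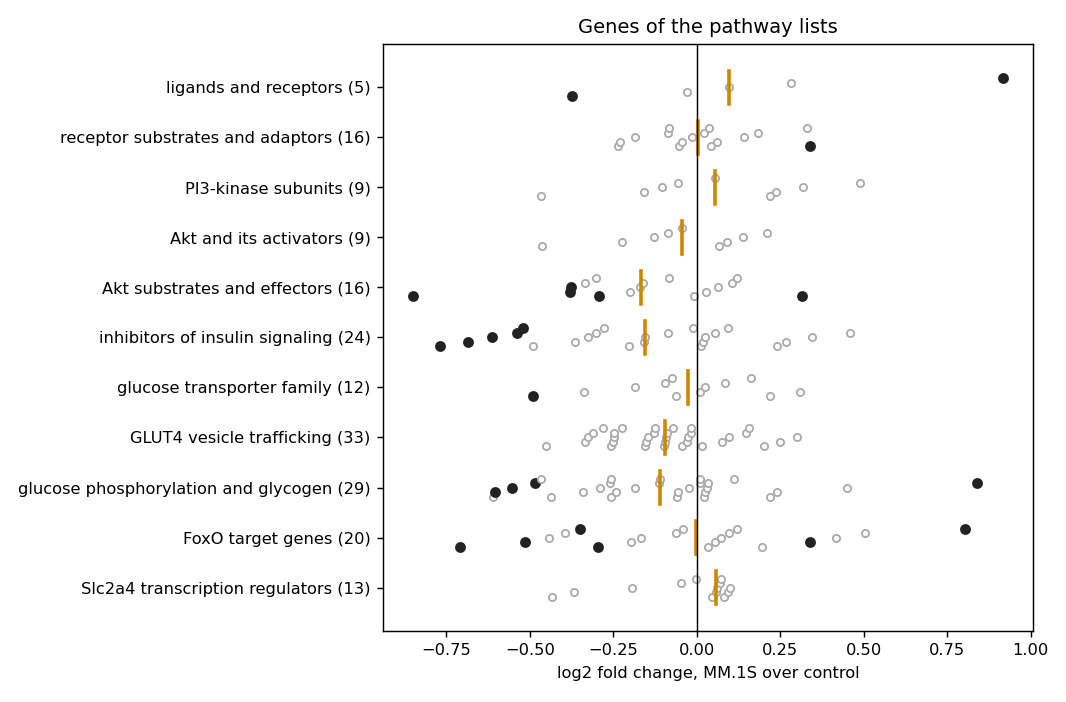
Log2 fold change of MM.1S over control (x axis) for each measured gene of the pathway lists (rows, number of genes in brackets); filled points have an unadjusted p of 0.05 or less, orange bars are list medians, and a gene on several lists appears in each. The filled points of the inhibitor row, 5 of 24 genes, all lie below 0, on a list drawn up with earlier results of these data known.

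Among ligands and receptors, 1 of 5 genes was higher and 1 lower. *Ins2*, an insulin gene, read 5.55, 5.22 and 5.74 in MM.1S adipocytes, against 4.82 and 4.36 in control adipocytes. Its log2 fold change was 0.92 ± 0.21 (SE), past both thresholds. *Ins2* averaged 4.59 in control adipocytes, against the background level of 3.59. Of the 12 settings, only leaving out control replicate 2 put its p above 0.05. *Igf2r*, which clears IGF-II, was lower by -0.37 ± 0.11 on the log2 scale (SE), and *Igf1r* had a fold change of -0.03. Of 16 receptor substrates and adaptors only *Irs2* was past the p threshold. None of the 9 PI3-kinase subunits and none of the 9 genes for Akt and its activators was past it in either direction, and *Akt1* had a log2 fold change of -0.22 ± 0.12 (SE). Among the PI3-kinase subunits, the catalytic subunit genes with the smallest p values were *Pik3cg*, which averaged below background, *Pik3cd* (0.32 ± 0.16) and *Pik3cb* (-0.47 ± 0.26, SE), the last 2 in opposite directions. *Pik3cb* read 5.69, 5.90 and 5.10 in MM.1S adipocytes, against 6.18 and 5.88 in control adipocytes, with MM.1S replicate 3 the lowest. The adaptor gene *Crk* had 0.33 ± 0.17 and the exchange factor gene *Sos2* had -0.24 ± 0.15 (SE). *Rictor* and *Mapkap1*, both of the TORC2 complex that phosphorylates Akt, had 0.21 ± 0.15 and -0.46 ± 0.41 (SE). *Mapkap1* read 6.54, 6.66 and 5.37 in MM.1S adipocytes, against 6.85 and 6.46 in control adipocytes, so the low MM.1S replicate 3 weighed on its difference. *Insrr*, the insulin receptor-related receptor, had 0.28 ± 0.17 (SE).

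Downstream of Akt, 1 of 16 substrates and effectors was higher and 4 were lower, with a list median of -0.17. *Foxo4* read 4.26, 4.04 and 4.01 in MM.1S adipocytes, against 4.82 and 5.08 in control adipocytes. It was the 1 gene of the list past both thresholds (a difference of -0.85 ± 0.14, SE, adjusted p = 0.388 by limma). It averaged 4.44 over the 5 arrays, near the background level of 3.59. *Foxo3* and *Foxo6* had log2 fold changes of 0.12 ± 0.35 and 0.06 ± 0.19 (SE). The other lower genes were *Pde3b*, the phosphodiesterase by which insulin restrains lipolysis (-0.38), the glycogen synthase kinase gene *Gsk3a* (-0.29) and the TORC1 brake *Tsc1* (-0.38), while *Rheb*, which switches TORC1 on, was higher (0.32). *Tsc1* and *Rheb* each lost the p threshold in 5 of the 12 settings, and *Gsk3a* in 6. Without control replicate 2 *Tsc1* was at -0.23. *Tbc1d4* (AS160), the Akt substrate that gates GLUT4 vesicles, had a fold change of -0.33 ± 0.23 (SE). Without control replicate 1 or control replicate 2, 2 genes of the list were lower.

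Of 24 genes listed as inhibitors of insulin signaling, 5 (20.8%) were lower and none higher, with a median of -0.16. The list was broad and was drawn up with earlier results of these data known. Its share is therefore not that of brakes on the insulin receptor alone. Among all named genes above background 6.02% were lower and 3.12% higher, with a median of -0.03. *Errfi1* (Mig-6), a feedback inhibitor of EGF receptor kinases, read 6.51, 6.53 and 6.19 in MM.1S adipocytes, against 7.18 and 7.18 in control adipocytes. That made a difference of -0.77 ± 0.14 on the log2 scale (SE), at an adjusted p of 0.434 by limma. *Ide*, the insulin-degrading enzyme, was lower by -0.69 ± 0.18 and *Socs7*, a SOCS-box protein, by -0.61 ± 0.20 on the log2 scale (SE), both past both thresholds. *Deptor* (-0.54), which restrains mTOR, and *Grb14* (-0.52), a relative of *Grb10*, were lower at a smaller fold, and lost the p threshold in 5 and 4 of the 12 settings. By the ANOVA of the methods 2 of the 24 were lower, *Ide* and *Errfi1*. Without control replicate 2, 1 of the 24 was lower, and *Deptor* was at -0.25, *Grb14* at -0.30 and *Socs7* at -0.39. Without MM.1S replicate 2 the count was 3.

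**Figure D5:**
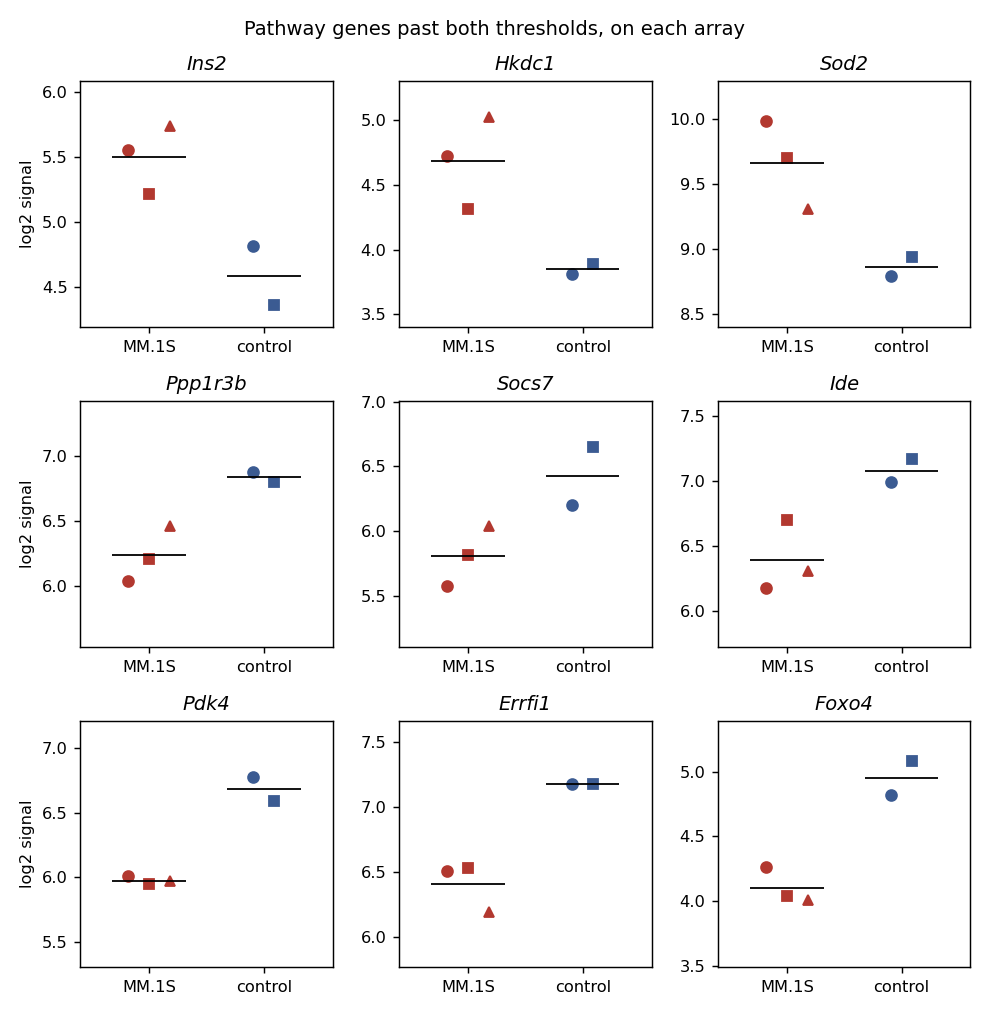
Log2 signal (y axis, the same span of 1.9 in every panel) of the 9 pathway genes past both thresholds on the 3 MM.1S arrays (red, left) and the 2 control arrays (blue, right), symbols as replicates 1 to 3 (circle, square, triangle) and lines as group means. Each was chosen for its difference, so the separation is a description; Errfi1 read 7.18 on both control arrays and 6.19 to 6.53 on the MM.1S arrays.

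*Slc2a1* was the only 1 of 12 listed transporter genes past the p threshold. Of these, 7 averaged above background, while *Slc2a3* (GLUT3), *Slc2a5* (GLUT5) and *Slc2a12* were among those that did not. *Slc2a8* and *Slc2a10* had log2 fold changes of -0.10 ± 0.12 and -0.19 ± 0.12 (SE). None of the 33 measured genes of GLUT4 vesicle trafficking was past the p threshold. Of the 33, 25 had a fold change below 0, with a list median of -0.09. Among all named genes above background, 6768 of 12136 had a fold change below 0, with a median of -0.03. The 3 trafficking genes with the smallest p were *Vamp8*, *Cblb* and *Snap23*, at -0.25, -0.26 and -0.25. With the ANOVA of the methods 3 genes of this list were lower. With an intensity trend and robust prior 3 were lower and 2 were higher.

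Once inside the cell glucose is phosphorylated by hexokinases and may be stored as glycogen. In that list of 29 genes 1 was higher and 3 were lower. *Hkdc1*, a hexokinase relative, read 4.72, 4.32 and 5.02 in MM.1S adipocytes, against 3.81 and 3.89 in control adipocytes, near the background level. *Hk2*, the hexokinase of insulin-responsive tissues, read 5.79, 5.59 and 6.04 in MM.1S adipocytes, against 6.62 and 6.11 in control adipocytes. It was lower by -0.55 ± 0.21 on the log2 scale (SE), whereas *Hk1* had a difference of 0.01 ± 0.11 (SE). *Hk2* lost the p threshold in 5 of the 12 settings, the ANOVA of the methods among them (0.115), and without control replicate 1 it was at -0.30. *Ppp1r3b*, which targets phosphatase 1 to glycogen, was lower by -0.60 ± 0.15 (SE), past both thresholds, and the phosphorylase kinase subunit gene *Phka2* was lower by -0.48. Without control replicate 1 the count of lower genes was 1, and without MM.1S replicate 3 it was 7.

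Of 20 known FoxO targets 2 were higher, 4 were lower and 14 were past the p threshold in neither direction, and the list median was -0.0036. *Pdk4*, the kinase that shuts pyruvate dehydrogenase, read 6.01, 5.95 and 5.97 in MM.1S adipocytes, against 6.78 and 6.59 in control adipocytes, a difference of -0.71 ± 0.11 on the log2 scale (SE). *Cdkn1b* (-0.51), *Sesn3* (-0.35) and catalase (*Cat*, -0.30) were lower too, but lost the p threshold in 5, 8 and 4 of the 12 settings. *Irs2* and *Sod2* were higher, with *Sod2*, the mitochondrial superoxide dismutase, at 9.99, 9.70 and 9.31 in MM.1S adipocytes, against 8.79 and 8.93 in control adipocytes. *Sod2* is also a well-known NF-kB target. Without control replicate 1 the counts were 1 higher and 1 lower. The lower count was 1 without MM.1S replicate 1, 2 without control replicate 2 and 2 by the ANOVA of the methods, and the higher count was 1 without control replicate 2 or MM.1S replicate 2 and 3 without MM.1S replicate 3. Of 13 measured genes listed as regulators of *Slc2a4* transcription, none was past the p threshold, and the smallest p values were those of *Klf15* (-0.37 ± 0.17) and *Nr1h3* (-0.43 ± 0.21, SE).

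Some markers of fat cells and of other cells also differed between the groups. Of 11 mature adipocyte markers, *Fabp4* was higher (0.32) and resistin (*Retn*) lower (-0.63). Each lost the p threshold in 4 of the 12 settings, for *Retn* the ANOVA of the methods among them (0.121). The lipid droplet and lipid handling genes *Plin1* (0.13), *Cidec* (0.14), *Lpl* (0.18), *Cd36* (0.12) and *Lipe* (0.13) had differences that missed the p threshold by limma. So did the adipogenic factors *Pparg* (0.05) and *Cebpa* (0.08). By the ANOVA of the methods *Pparg* had an unadjusted p of 0.0104, and all its MM.1S arrays lay above both controls. The list averaged 9.73 to 9.82 on the MM.1S arrays and 9.68 to 9.80 on the control arrays. Of 10 preadipocyte markers, *Pdgfrb* was higher (0.35) and *Dlk1* (-0.45) and *Col3a1* (-0.40) were lower. That was 10% higher and 20% lower, against 3.12% and 6.02% of all named genes above background. *Dlk1* kept the p threshold in all 12 settings, and *Pdgfrb* and *Col3a1* each lost it in 1. The list averaged 6.45 to 6.61 in MM.1S adipocytes and 6.63 to 6.66 in control adipocytes. Of 7 macrophage markers *Cd14*, which adipocytes also make, was higher (0.83), past both thresholds. It kept the p threshold in all 12 settings. *Adgre1*, *Csf1r*, *Itgam* and *Mrc1* averaged below background. The list averaged 3.96 to 4.01 in MM.1S adipocytes and 3.75 to 3.77 in control adipocytes. None of the 7 plasma and B cell markers (averages of 3.57 to 3.66 in MM.1S and 3.41 to 3.45 in control adipocytes) or of the 8 skeletal muscle markers (3.72 to 3.86 in MM.1S and 3.64 to 3.79 in control adipocytes) was past the p threshold. Only 2 of the 7 plasma and B cell markers and 4 of the 8 skeletal muscle markers averaged above background. The part of any of these marker groups in the transporter and *Irs2* values was not tested.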

How the data were processed

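RNA from 5 cultures was measured on Clariom S mouse arrays. The authors deposited log2 values, 1 per probe set and array, after RMA in Partek (per the labels), and these were used as deposited. Genes were named through the platform annotation: 19572 of 22206 probe sets had 1 symbol, 0 had several and 2634 had none, and for a gene with several probe sets the one with the highest mean over all arrays was taken. No genome build for the probes was given in the sources used here. Array numbers, not reading depth, limit the precision.

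The 3 MM.1S arrays were set against the 2 control arrays with limma 3.58.1 in R 4.3.3 (lmFit, eBayes, two-sided, residual df 3, prior df 2.79), with Benjamini-Hochberg adjustment over all 22206 probe sets. The fit was tested on simulated data first. The study's own test, a one-way ANOVA per probe set with thresholds of an unadjusted p of 0.05 and a fold change of 1.5, was run as an alternative (with 2 groups, the methods' t-test). The other alternatives were an intensity trend with a robust prior, a further quantile normalization, each array's median set to 0, array weights, leaving out probe sets below background, the replicate number as a block, and leaving out each array in turn. They were applied to the list genes only after the list values had been seen.

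The genes named were all members, every list gene past both thresholds, in each list the genes of lowest p (at most 3), the adipocyte markers and the nearest profiles. Other names, mainly family relatives of these, were chosen after their values were seen. The members and lists were chosen with earlier results of these data known. Some listed genes were not analysed here.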

Additional observations from a re-analysis of the deposited data

How the results depend on the processing

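Of 140 values under other settings, 122 were counted as unchanged. For a member's fold change, unchanged meant the same direction and the same call of past both thresholds or not, though some crossed the p threshold alone. The 140 also held counts of members and the *Slc2a4* minus *Slc2a1* change, to which that call does not apply. Counts of members past fold changes of 1.8 and 2 could only stay at 0, the count at the main threshold. With a further quantile normalization *Irs1* was at 0.052 and with array weights at 0.037 on the log2 scale, and leaving out 1 array gave -0.12 to 0.12. *Insr* lay between -0.0059 and 0.20 and *Pik3r1* between -0.26 and 0.00 when 1 array was left out, with positive *Pik3r1* values only without MM.1S replicate 3. For *Slc2a1* that range was -0.63 to -0.40, for *Slc2a4* minus *Slc2a1* it was -0.037 to 0.34, for members past both thresholds 0 to 1, and for members at an unadjusted p of 0.05 or less 0 to 2, against 2 with all arrays. The ANOVA of the methods also counted 2, but these were *Irs2* and *Foxo1* in place of *Irs2* and *Slc2a1*. It put 284 probe sets past both thresholds, against 522 by limma.

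The replicate number as a block gave 0.12 for *Irs1*, 0.0033 for *Pik3r1* and -0.63 for *Slc2a1*, with 1 member past both thresholds and 1 at an unadjusted p of 0.05 or less, *Slc2a1*, while *Irs2* was at 0.0690. Only 2 numbers occur in both groups, so by construction this block takes MM.1S replicate 3 out of the fold changes. Deviations from the group means correlated at -0.03 for number 1 and 0.06 for number 2, so the numbers were not shown to pair the cultures. Leaving out probe sets below background gave *Grb10* no value, and another probe set could not be tried, since each member had 1.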
